A study of Drosophila melanogaster with 4 samples.

Results

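Of the 2922 Lola-PJ peaks in the deposited list, 467 (16.0%) lay on the X chromosome of Drosophila melanogaster. They are all the rows of the list whose sequence name is X, so no measured value chose them, and the 2 peaks on XHet, assembled heterochromatin of X, are not among them. The data come from chromatin immunoprecipitation with sequencing (ChIP-seq) on whole embryos aged 12 to 24 h of the strain lola-RJ-GFP, genotype PBac{y[+]-attP-3B}VK00033. As the labels give it, the transgene is the lola-RJ genomic coding region, and its product was pulled down through green fluorescent protein (GFP) with the rabbit polyclonal antibody ab290. The series has 2 GFP ChIP and 2 input libraries, all 4 from this strain. The growth protocol names y; bw cn sp flies instead, and the labels do not say how the names relate. No precipitation from embryos without the tag and no second genotype, stage or treatment enters the list, so DNA recovered without the tagged protein cannot be told apart. The labels do not say whether flies of this strain also kept their own lola gene intact.

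Lola (longitudinals lacking) is a gene whose alternative splicing joins a shared BTB domain, a protein-protein contact module, to many different ends, most of them with zinc fingers that bind DNA. Its products are known as transcription factors in axon guidance and neural identity in the embryo. The fly X is a single acrocentric chromosome: the list's coordinates rise from the telomere, at the distal end, to the centromere, at the proximal end. In males, which have a single X, the dosage compensation complex raises transcription across this chromosome, and X therefore differs from the autosomes in chromatin. The sex of the embryos was not taken into account here. Any effect of the copy number of X on peak calls or scores, X against autosomes, was not tested.

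The list gives the limits of every peak and the authors' score, whose formula the file does not name. Scores were therefore compared only within the list. Ratios and sums of scores given here are of the listed numbers, and what they mean depends on that formula. Values were not split by library, and no peak has an error over replicates. All intervals here are at the 95% level. Except where a quasi-Poisson interval is named, they take peaks as independent, which close neighbours are not, and cover counting error only. Coordinates are of FlyBase release 5. The gene table used here is of release 6, so no peak was tied to a gene, and no peak sequence was read.

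Taken as a whole, X carried peaks about as densely as the autosomal arms. From the first peak, at 26961 to 27351 (score 15.92), to the last, at 22409488 to 22409787 (score 7.93), X spanned 22.4 Mb and held 20.9 peaks per Mb (Poisson interval, 19.0 to 22.8). Arms 2L, 2R, 3L and 3R together held 1908 peaks at 19.8 per Mb, and the ratio of X to them was 1.05 (exact conditional interval, 0.951 to 1.17). Set against single arms, X had 1.15 times the density of 3R (1.01 to 1.30), and the intervals against 2L (0.884 to 1.15), 2R (0.815 to 1.06) and 3L (0.993 to 1.29) included 1. These intervals do not allow for uneven counts along an arm, and that against 3R barely excluded 1. Over 500-kb windows the pooled ratio was 1.08, with a wider quasi-Poisson interval of 0.875 to 1.34. Single arms were not compared that way. Peaks on X covered 288 kb, or 12.9 kb per Mb of span, against 11.8 kb per Mb on the other 4 arms.

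Peak scores on X also had an ordinary spread when position was ignored. The median score on X was 18.2 (order-statistic interval, 16.6 to 19.5), with a range of 5.86 to 347.12, against a median of 18.4 (17.5 to 19.2) on the other 4 arms. High-score peaks are taken here as those at or above the 90th percentile of the whole list, a score of 83.3, which 293 peaks, or 10.0% of the list, reached. On X 49 of 467 peaks were high-score (10.5%; exact binomial interval, 7.86 to 13.6%), against 9.75% of the peaks on the other 4 arms. The X peak just inside that limit scored 83.32 and the next below it 82.08.

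Position along X separated the high-score peaks from the others. Of the 49, only 8 lay distal to the middle of the span (position 11218374) and 41 lay proximal to it, although the distal side held 241 peaks and the proximal side 226. High-score peaks thus made up 3.32% of distal peaks (exact binomial interval, 1.44 to 6.44%) and 18.1% of proximal ones (13.3 to 23.8%), an odds ratio of 6.43 (exact conditional interval, 2.89 to 16.3). Per length, they numbered 0.715 per Mb distally and 3.66 per Mb proximally, a ratio of 5.13 (2.37 to 12.7). The remaining X peaks numbered 20.8 per Mb distally and 16.5 per Mb proximally, a ratio of 0.794 (0.651 to 0.967). The proximal side includes the last 2 Mb of the span, which held only 12 peaks, and this ratio was not computed without them. The variance of counts over 1-Mb windows of X was 3.93 times the mean, which these density intervals do not allow for. The size of the split depended on the limit. With a score of at least 36.9, the list's 75th percentile, the odds ratio was 1.99 (1.26 to 3.18), and the median score of all X peaks was 17.9 distally (15.5 to 19.4) and 19.3 proximally (16.5 to 22.1), with overlapping intervals. This split at the middle was chosen after the scores along X had been seen.

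No split as large as this was seen on the other large arms. Pooled, 8.86% of their distal peaks (80 of 903) and 10.5% of their proximal peaks (106 of 1005) were high-score, an odds ratio of 1.21 (exact conditional interval, 0.884 to 1.67). Single arms ran from 0.848 on 2L to 1.61 on 2R (0.872 to 3.08), and the interval of each of these 4 arms included 1. Only that of 2R reached into the interval of X. The odds ratio on X was 5.32 times that of the other arms (Wald interval of the interaction, 2.30 to 12.3).

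**Figure D1:**
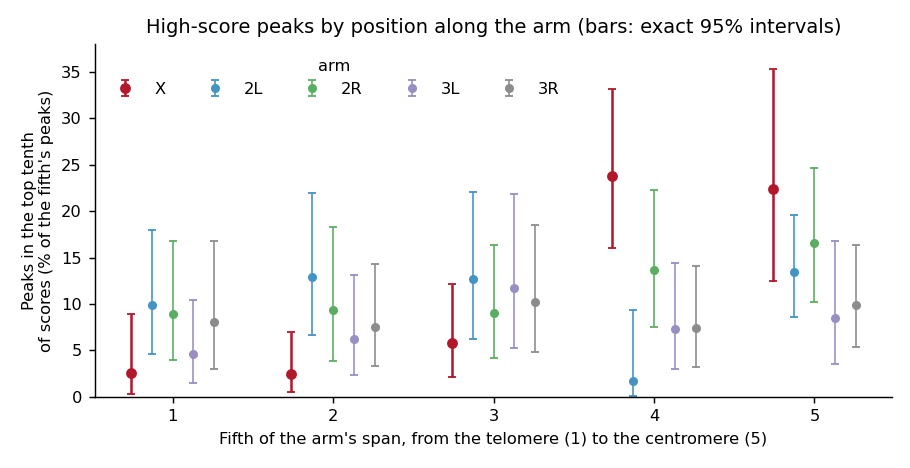
Share of peaks whose score is in the top 10% of the list (vertical axis, % of peaks), for 5 equal segments of each arm's span from telomere to centromere (horizontal axis). Points are shares and bars exact binomial 95% intervals; X rises from 2.56% and 2.46% in segments 1 and 2 to 23.8% and 22.4% in segments 4 and 5.

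Cut into 5 equal segments, X changed between segments 3 and 4. The 3 distal segments held 2 of 78, 3 of 122 and 6 of 104 high-score peaks. The 2 proximal segments held 25 of 105 and 13 of 58. The interval of segment 4 (16.0 to 33.1%) overlapped none of those of the 3 distal segments, which ended at 8.96%, 7.02% and 12.1%. The density of all peaks did not follow this order: it was 17.4 per Mb in segment 1, 27.3 in segment 2, 23.2 in segment 3, 23.5 in segment 4 and 13.0 in segment 5.

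Within the proximal side, the windows differed in their number of high-score peaks. The windows at 15 to 16 Mb and 16 to 17 Mb held 10 and 11 of them, among 36 and 40 peaks. The window at 19 to 20 Mb held 7 among 23. In between, the window at 17 to 18 Mb held 1 among 12 peaks and that at 18 to 19 Mb held 3 among 17. Nearer the centromere, the window at 20 to 21 Mb held 0 among 8, with a highest score of 30.39, and that at 21 to 22 Mb held 3 among 9. Distally, no complete window of 1 Mb up to 10 Mb held more than 1, and those at 2 to 3, 3 to 4, 5 to 6 and 9 to 10 Mb held 0. Without the 2 Mb from 15 to 17 Mb, where 27.6% of peaks were high-score, 20 of 150 proximal peaks still were (13.3%; 8.34 to 19.8%), and the odds ratio was 4.46 (1.82 to 12.1).

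**Figure D2:**
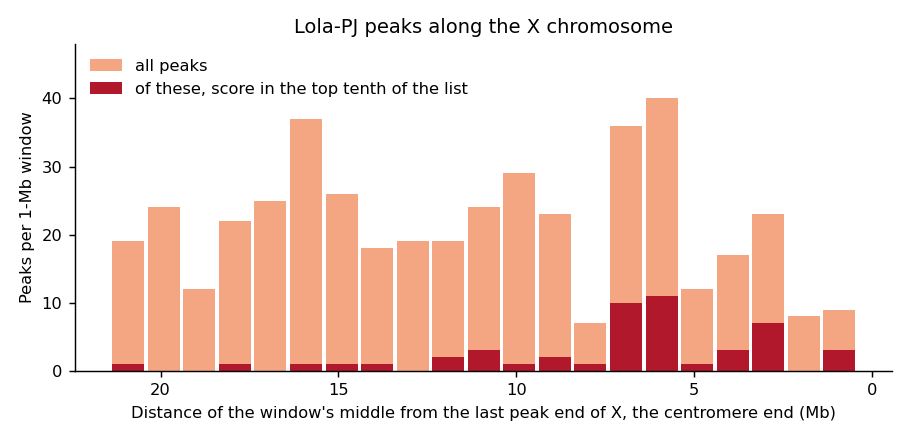
Number of X peaks in each of the 21 complete 1-Mb windows (vertical axis) against the distance of the window's middle from the last peak end of X (horizontal axis, Mb; the centromere lies to the right). Pale bars are all peaks, from 7 to 40 per window, and dark bars the high-score ones, which reach 10 and 11 in the pair of windows near 7 and 6 Mb from the end.

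The number of peaks per window varied widely along X. Over the 21 complete windows of 1 Mb the mean was 21.4 ± 9.16 peaks (SD over windows), and the variance was 3.93 times the mean. It was 2.10, 2.29 and 2.48 times the mean on 2R, 3R and 3L, and 17.3 times on 2L, where a block of 68 peaks lies within 127 kb. On X the fullest windows were those at 16 to 17 Mb (40 peaks), 6 to 7 Mb (37) and 15 to 16 Mb (36). The emptiest was at 14 to 15 Mb, with 7 peaks. That window nevertheless held the highest score of the chromosome.

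The 10 highest scores on X describe sites of several kinds. The highest, 347.12, belonged to a peak of 1530 bp at 14476655 to 14478184, whose nearest neighbour was 189 kb away, centre to centre, with a score of 9.59. It was the second highest of the list. The only other of the 10 with no peak within 10 kb, edge to edge, lay at 11030036 to 11032178, with a score of 195.28 and a width of 2143 bp. Its nearest neighbour was much closer, 11.9 kb away, centre to centre, with a score of 69.05, so its place here depends on the 10-kb limit.

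A second kind had only much weaker peaks within 10 kb. The peak at 6746060 to 6747864 (score 279.58, 1805 bp) opened the largest group on X, and its nearest neighbour scored 44.69. The peak at 1935324 to 1937509 (257.92, 2186 bp) had a neighbour 1.37 kb away with a score of 9.98. These are the 2 of the 10 that lie far into the distal side, at 30.0% and 8.53% of the span. The peak at 15689580 to 15690589 (222.27, 1010 bp) had a neighbour 3.77 kb away that scored 22.09.

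The rest lay within 10 kb of another high-score peak, and all of them were proximal. A weaker peak could lie nearer than the high-score one. At 16278497 to 16279750 a score of 260.39 stood 6.36 kb from one of 130.47, with a weak peak of score 12.06 between them. At 15880472 to 15881498 a score of 230.17 stood 3.55 kb from one of 99.14. The peaks at 18677299 to 18678340 and 18682026 to 18682691 scored 188.72 and 180.22 at a distance of 4.54 kb. At 19531049 to 19532445 a score of 180.28 stood 8.46 kb from one of 108.57, with a peak of score 20.6 nearer, at 6.00 kb.

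Such pairs of neighbouring high-score peaks were found only on the proximal side of X, which held 41 of the 49 high-score peaks. With only 8 distal ones, few distal pairs were possible. The share of close pairs was not compared between the sides or with the other arms. Of the 48 distances between consecutive high-score peaks, 8 were at most 10 kb, and they lay between 15827414 and 21504485. Among the others were a run of 3 at 15827414 to 15839589, with scores of 159.88, 123.10 and 84.07, and a pair at 16041506 to 16043477 with 131.59 and 83.32, the closest at 1.10 kb. The last was a pair at 21501051 to 21504485 with 150.60 and 93.21. The median distance between consecutive high-score peaks was 79.0 kb, and the longest was 2626 kb.

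Wide peaks were found along all of X, but their scores differed by position. Widths on X had a median of 459 bp (order-statistic interval, 424 to 505 bp; middle 50% of peaks, 303 to 821 bp; range, 201 to 2718 bp), against 443 bp (426 to 463 bp) on the other 4 arms. Peaks of at least 1000 bp were found on both sides, 37 of 241 distally (15.4%; exact binomial interval, 11.0 to 20.5%) and 43 of 226 proximally (19.0%; 14.1 to 24.8%). The intervals of these shares overlapped, whereas those of the scores did not: the distal 37 had a median of 40.4 (31.4 to 58.8) and the proximal 43 a median of 104 (83.3 to 146). High-score peaks were 6 of the distal 37 (16.2%; 6.19 to 32.0%) and 29 of the proximal 43 (67.4%; 51.5 to 80.9%).

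Peaks under 1000 bp had similar median scores on both sides, 15.3 (13.7 to 17.2) distally and 15.9 (13.7 to 17.3) proximally. Of these, 2 of 204 distal peaks were high-score (0.980%; 0.119 to 3.50%) and 12 of 183 proximal ones (6.56%; 3.43 to 11.2%), with intervals that just overlapped. The wide peaks were not longer on the proximal side, with a median of 1356 bp distally and 1267 bp proximally. On 2R, 3L and 3R the intervals of the median score of wide peaks overlapped between the sides. Distal and proximal medians were 65.6 and 80.2 on 2R, 63.7 and 70.5 on 3L, and 60.1 and 61.7 on 3R. The intervals also overlapped on 2L, at 86.9 (38.1 to 148) distally and 70.8 (58.6 to 79.8) proximally. The distal median of X, 40.4, was below all of these and the proximal one, 104, above them. Set against the same side of each other arm, the intervals of X overlapped all but that of proximal 2L.

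The 5 widest peaks on X show the spread of scores at nearly equal width. The widest, 2718 bp at 19388597 to 19391314, scored 163.98. The next were 2435 bp at 15705626 to 15708060, with a score of 127.78, and 2395 bp at 16226789 to 16229183, with a score of 91.01. The 2 distal ones differed most: 2190 bp at 7199944 to 7202133 scored 58.82, whereas 2186 bp at 1935324 to 1937509 scored 257.92. Among peaks narrower than the list's median width of 452 bp, the highest score on X was 62.73, at 4320698 to 4321143 (446 bp), 1.65 kb from a high-score peak of 128.61.

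Across the 467 X peaks the Spearman rho between score and width was 0.80, a description across peaks of a single call from which both values come. It was 0.75 among distal and 0.84 among proximal peaks. The median width was 265 bp among the 126 X peaks with a score under 12.06, the list's 25th percentile, and 1014 bp among the 109 with a score of at least 36.9, its 75th.

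**Figure D3:**
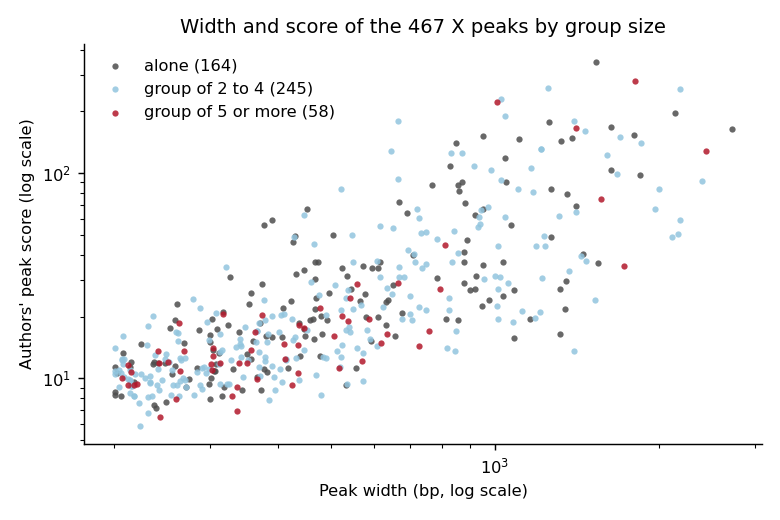
Width (horizontal axis, bp, log scale) and authors' score (vertical axis, log scale) of each of the 467 X peaks. Grey points are peaks with no other within 10 kb (164), blue points those in groups of 2 to 4 (245) and red points those in groups of 5 or more (58), most of which lie at low scores.

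The median spacing on X was shorter than on the other 4 arms pooled, and whether the intervals overlapped depended on a block on 2L. Neighbouring centres on X were 14.6 kb apart at the median (order-statistic interval, 12.3 to 18.5 kb; middle 50%, 2.85 to 49.2 kb), against 19.1 kb (16.8 to 21.3 kb) on the other 4 arms. These intervals overlapped. Without the block of 68 peaks on 2L the other arms had 20.7 kb (18.7 to 23.2 kb), which did not overlap the interval of X. On 2L the median was 13.7 kb with that block and 19.2 kb (16.3 to 26.3 kb) without it. Arm by arm, the interval of X overlapped those of 2L (10.8 to 17.9 kb), 2R (13.9 to 22.8 kb) and 3L (16.8 to 26.7 kb), and ended just below that of 3R (18.6 to 27.1 kb).

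Distances on X ran from under 1 kb to over 100 kb, with shares near those of the other arms. Of 466 distances, 55 were at most 1 kb (11.8%), 139 were 1 to 10 kb (29.8%), 197 were 10 to 100 kb (42.3%) and 75 were over 100 kb (16.1%). On the other 4 arms these shares were 10.7%, 27.6%, 45.7% and 16.0%. On X the share up to 10 kb was 41.6% (exact binomial interval, 37.1 to 46.3%), against 38.2% (36.0 to 40.5%) on the other arms. Edge to edge, 33 gaps on X (7.08%) were at most 200 bp, with 50 bp the smallest, so some neighbours may be pieces of a single enriched stretch. Whether they are was not tested.

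**Figure D4:**
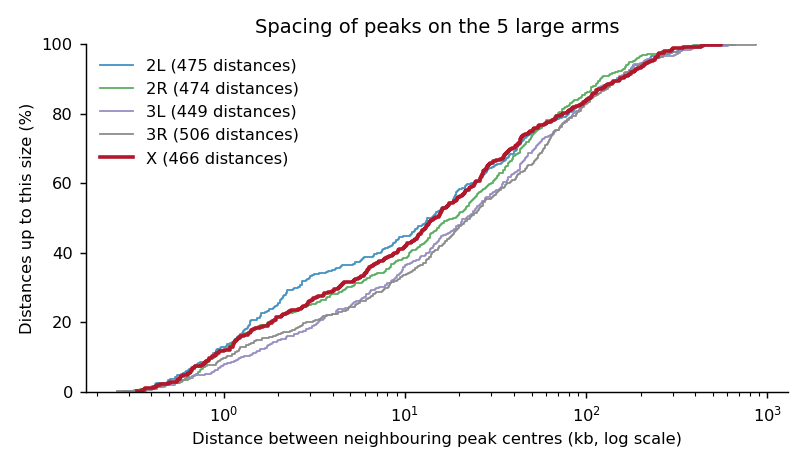
Cumulative share of distances between neighbouring peak centres (vertical axis, %) against distance (horizontal axis, kb, log scale) for the 5 large arms. The curve of X runs near that of 2R at a few kb, joins that of 2L above about 10 kb and lies above those of 3L and 3R through its median of 14.6 kb.

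Peaks up to 10 kb apart, edge to edge, were joined into groups. On X this gave 164 lone peaks, 51 pairs, 37 groups of 3, 8 groups of 4 and 8 groups of 5 or more, 268 in all. Lone peaks made up 35.1% of X peaks (exact binomial interval, 30.8 to 39.6%), against 41.2% (39.0 to 43.5%) on the other arms, with overlapping intervals. Without the block on 2L the other arms had 42.8% lone peaks (40.5 to 45.1%), which did not overlap the interval of X. Arm by arm, the interval of X overlapped those of 2L (32.8 to 41.7%), 2R (33.5 to 42.4%) and 3L (38.3 to 47.6%), and lay below that of 3R (42.3 to 51.2%). Peaks in groups of 2 to 4 made up 52.5% (47.8 to 57.1%) against 45.4% (43.1 to 47.7%). The intervals of the second comparison failed to overlap by a narrow margin, and they overlapped without the block on 2L, at 47.1% (44.8 to 49.4%). In the 51 pairs the centres were 2.26 kb apart at the median, and the higher score was 1.96 times the lower at the median.

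Peaks in groups of 5 or more had a lower median score than lone peaks on X. The groups held 58 peaks, 12.4% of the total (exact binomial interval, 9.57 to 15.8%), against 13.4% on the other arms. Their median score was 13.9 (order-statistic interval, 11.9 to 16.7), against 17.1 (15.1 to 20.1) in groups of 2 to 4 and 21.7 (19.2 to 25.9) for lone peaks. Of the 58, 42 (72.4%) scored below the list's median of 19.35, and 4 were high-score (6.90%; exact binomial interval, 1.91 to 16.7%), against 12.2% of lone peaks (7.61 to 18.2%), with overlapping intervals. The group of 6 at 15689580 to 15712126 went against the rest, with a median of 25.4. On the other arms, without the block on 2L, the medians were 16.7 (14.6 to 18.8) in such groups and 20.1 (19.0 to 22.2) for lone peaks.

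On either side of the middle, grouped peaks had the lower median. Distally the median score was 13.9 (11.9 to 17.1) in the 34 peaks of such groups and 21.9 (19.3 to 25.9) in 82 lone peaks. Proximally the values were 14.1 (10.1 to 22.1) for 24 peaks and 21.4 (16.5 to 30.7) for 82, with overlapping intervals. With joining up to 20 kb the intervals of grouped and lone peaks on X also overlapped, at medians of 16.2 and 21.7.

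Of the 8 groups, 3 held a high-score peak. The largest, 14 peaks in 23.2 kb at 6746060 to 6769308, opened with the score of 279.58 named above, 6.26 times the next (44.69), and its median was 14.4. Peaks covered 36.7% of its length. The group of 7 at 12547614 to 12571193 likewise opened with its highest score, 166.30, 14.9 times the next (11.17). The group of 6 at 15689580 to 15712126 held a pair of high scores, 222.27 at its distal edge and 127.78 further in, a ratio of 1.74. In these 3 groups the highest score was the outermost peak, always at the distal edge.

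The other 5 groups had no high-score peak. The 8 peaks at 2188077 to 2200780 were nearly level, from 10.65 to 20.58. The 7 peaks at 7589055 to 7603368 ran from 6.51 to 27.19, and the 5 at 9474012 to 9478673, the shortest group at 4.66 kb, from 9.26 to 24.54. The 5 peaks at 12618444 to 12631783 reached 74.83, 2.57 times the next (29.10), and the 6 at 12644938 to 12655410 reached 20.07. These last 2 and the group of 7 at 12547614 lay within 108 kb and together held 18 peaks.

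**Figure D5:**
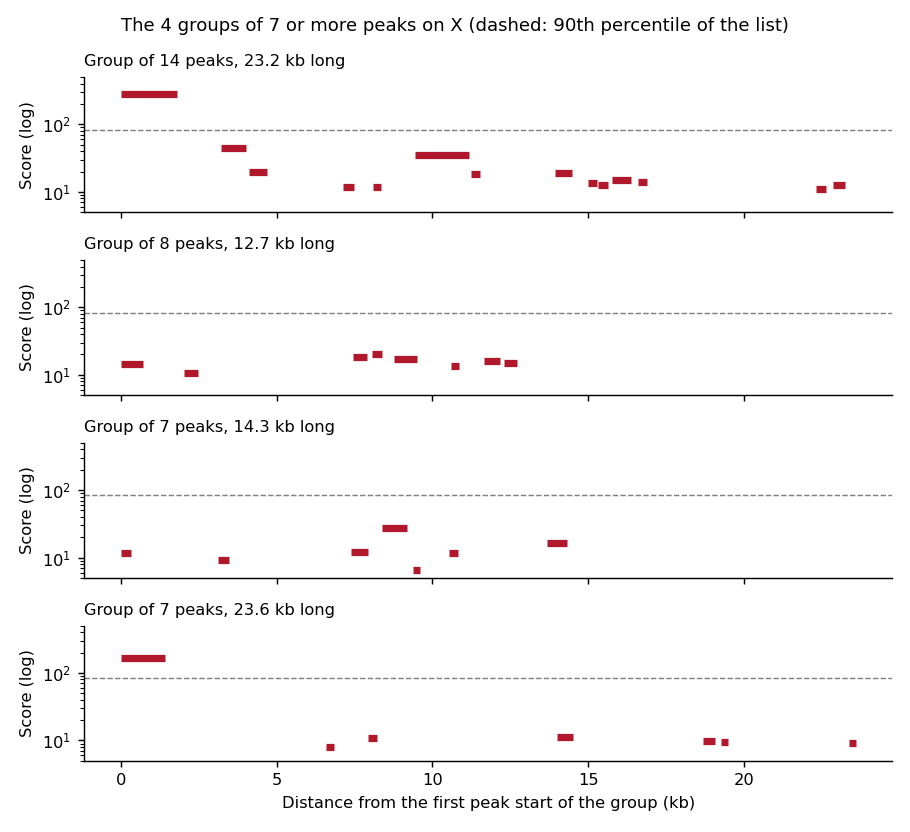
Score (vertical axis, log scale) and extent (horizontal axis, kb from the group's first peak start) of each peak in the 4 X groups of 7 or more; a horizontal bar is a peak and the dashed line the 90th percentile of the list. The groups of 14 and of 7 (23.6 kb) start with a score above that line, 279.58 and 166.30, followed by weaker peaks; the groups of 8 and of 7 (14.3 kb) stay below it.

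The centromere end of X was thin in peaks, and those there had both high and low scores. The last 2 Mb of the span held 12 peaks, 0.269 times the density of the rest of X (exact conditional interval, 0.138 to 0.474). A quasi-Poisson interval over 500-kb windows, which allows for uneven counts along the arm, was wider, at 0.0835 to 0.867. The 12 peaks included the last peak of the arm. The first of them lay at 20631325 to 20631648 (score 18.22). High scores were 3 of the 12 (25%; exact binomial interval, 5.49 to 57.2%): 150.60 and 93.21 in the pair at 21501051 to 21504485, and 103.59 at 21857140 to 21858775. The next were 48.63 at 21194332 to 21195598 and 43.97 at 21844847 to 21846084. The median score was 23.7 (order-statistic interval, 11.2 to 93.2) against 18.1 (16.5 to 19.5) on the rest of X, with overlapping intervals.

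The other 7 peaks of this end scored 7.93 to 29.19, and 8 of the 12 stood alone. Over the 4 other arms the density in the corresponding 2 Mb was 1.72 times that of the rest, and the ratio on X was 0.156 times theirs (exact conditional interval of the odds ratio, 0.0790 to 0.281). Without the block on 2L it was 0.213 times theirs (0.107 to 0.385). With peaks up to 10 kb apart also joined it was 0.376 times theirs (0.173 to 0.735). Arm 3L was also thin there, with a ratio of 0.495 (0.295 to 0.782), so X did not stand alone in this. The telomere end of X did not differ in density from its rest: the first 2 Mb held 38 peaks, at a ratio of 0.903 (0.630 to 1.26). For the comparison of this end between X and the other arms, no interval that allows for uneven counts was computed. Assembly gaps and mappability at the ends were not tested.

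Stretches without any peak were spread along the arm. The 5 longest were at 21858776 to 22409487 (551 kb), 9581631 to 10105384 (524 kb), 11923250 to 12362295 (439 kb), 1236506 to 1667671 (431 kb) and 21504486 to 21844214 (340 kb). The first and the last of these belong to the centromere end. Stretches over 200 kb numbered 31 on X and took 38.9% of its span, against 37.1% on 2L, 33.8% on 3L, 32.7% on 3R and 22.9% on 2R. Of the 223 complete 100-kb windows on X, 72 held no peak (32.3%; exact binomial interval, 26.2 to 38.9%), against 29.9% (27.0 to 32.9%) on the other arms, so the intervals overlapped.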

How the data were processed

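The deposited list was made by the authors from 2 GFP ChIP and 2 input libraries. Embryos aged 12 to 24 h were fixed in 1.8% formaldehyde for 15 min, per the labels' protocols. CASAVA (1.7.0.2 and 1.7.0.3), BWA, MACS2 and build BDGP5 are named in the submitters' processing notes. Coordinates are FlyBase release 5 and peaks come from MACS, per the file headers and source column. The authors' score per peak is deposited with 2 decimals and no formula. The sources used here do not give cut-offs, pooling of replicates or depth per library, and 0 columns hold values per library, so no test over samples was possible.

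From the starts, ends and scores, widths, centre distances, windows and groups were computed in Python 3.11.15 (NumPy 2.4.6, SciPy 1.17.1, pandas 2.3.3, matplotlib 3.10.9). The span of an arm, first peak start to last peak end, stood in for its length. Densities have exact Poisson intervals and their ratios exact conditional ones, shares have Clopper-Pearson intervals, and medians have order-statistic ones. Quasi-Poisson intervals come from counts in 500-kb windows and widen with the spread of those counts. A difference was called where the interval of a ratio excluded 1 or where 2 intervals did not overlap. No p-values were computed. Intervals of density ratios, medians and ratios of window counts were tested on simulated data. Those of odds ratios, of the interaction and of shares were not. The simulated density ratios took peaks as independent, so coverage with grouped peaks was not tested for them. Named peaks are the 10 highest scores, the 5 widest, the highest score under the list's median width, all groups of 5 or more, the 5 longest empty stretches, the peaks of the last 2 Mb and the first and last peak. Neighbouring high-score pairs and the windows were added after their values were seen. The members, measures and limits were chosen with earlier results of these data known. Promoters, genes and sequences were not used here, because the gene table is of release 6.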

Additional observations from a re-analysis of the deposited data

Results flagged for a closer look

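The effect of position on high scores differed between X and the other large arms: the odds ratio between the proximal and the distal side on X was 5.32 times that on 2L, 2R, 3L and 3R together (Wald interval of the interaction, 2.30 to 12.3). It was 5.19 times without the block on 2L (2.24 to 12.0), 3.85 times with peaks up to 10 kb apart joined (1.60 to 9.30) and 3.69 times without 15 to 17 Mb of X (1.50 to 9.09). The split was noticed in these data and tested on the same data.

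Density at the centromere end also differed between X and those arms, by a factor of 0.156 (exact conditional interval, 0.0790 to 0.281). That interval does not allow for uneven counts along an arm. The factor was 0.213 without the block on 2L, 0.373 with peaks up to 10 kb apart joined and 0.376 with both. Arm 3L was thin at that end too, at 0.495 times its rest over the last 2 Mb and 0.210 times over the last 1 Mb, where X had 0.278 times.

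The 2 peaks on XHet lie outside every comparison made here. They were at 61241 to 61476, with a score of 10.76, and at 75121 to 76764, with a score of 105.94.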

How the results depend on the processing

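Of 44 alternatives over 12 results, 35 kept the direction and the side of the threshold. The 7 reversals of sign were in differences between X and the other arms that were not called. The density ratio was 0.991 with peaks up to 10 kb apart joined, and the ratio of median scores 1.00 without the block on 2L. The difference in the share of high scores was -1.24 percentage points with a score of at least 36.9 as the limit. With peaks below the list's median score left out, the differences were -0.463 points for distances up to 10 kb and -0.475 points for empty windows. The difference for groups of 5 or more was 2.26 points without the block and 4.55 points with joining up to 20 kb. The ratio of median distances, X to the other arms, passed the threshold without the block, at 0.708. The reference median rose with the loss of 68 close peaks and that of X stayed as it was. The ratio of median scores of grouped to lone peaks was 0.744 with joining up to 20 kb and no longer called; the cause was not tested. The odds ratio of high scores stayed called in its 5 alternatives, all added after the data were seen, between 1.99 with that limit and 6.27 without the last 2 Mb. The ratio at the centromere end stayed called in its 6 alternatives, between 0.269 and 0.551, the latter over the last 4 Mb. With a quasi-Poisson interval over 500-kb windows, which allows for uneven counts, its upper limit came nearer to 1 (0.0835 to 0.867). No paired analysis was possible because scores are not split by library, and no replicate could be left out. Depth is unknown, which limits what a single score can show.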

Other observations

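Neighbouring peaks on X were only weakly alike in score. Over 194 neighbours with centres up to 10 kb apart the Spearman rho of their scores was 0.18, and over 272 neighbours farther apart it was 0.05, as descriptions across peaks of a single list. A high-score peak was the nearest neighbour of 17 of the 49 high-score peaks. High-score peaks made up 10.5% of all X peaks, 18.1% of proximal ones and 27.6% of those at 15 to 17 Mb. Peaks that were each other's nearest neighbour counted for both, so the 17 are not separate observations. Whether high-score peaks cluster beyond these shares was not tested.

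The 49 high-score peaks had a median width of 1215 bp (order-statistic interval, 1042 to 1409 bp) and a range of 522 to 2718 bp, and they carried 43.3% of the summed score on X. Of these, 20 stood alone, 25 lay in groups of 2 to 4 and 4 in groups of 5 or more. The narrowest width in the list, 201 bp, was that of 6 X peaks.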
